A study of Rattus norvegicus with 10 samples.

Results

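The genes described here mark connective tissue and the contractile cells of vessel walls: collagens, proteoglycans and other matrix proteins of fibroblasts, and genes of smooth muscle cells and pericytes. They were chosen by name as 39 genes, of which 34 are matrix and fibroblast genes and 5 (Acta2, Tagln, Myl9, Des and Rgs5) are mural genes, out of 14217 genes with a name on the array. All 39 were measured, by 60 of 31042 probe sets, and 18 of them by more than 1 probe set. The samples were transitional epithelium of the rat nasal cavity, cut out by laser capture microdissection and measured on expression arrays, with 1 array for each of 10 animals. All animals were male F344/N rats aged 5 to 6 weeks when dosing began. In the treated group, 5 animals received N,N-dimethyl-p-toluidine (DMPT), an aromatic amine used to speed the setting of acrylic resins, at 120 mg/kg/day in corn oil by gavage for 5 days; the 5 vehicle animals received corn oil in the same way. The values are log2 expression values, on which a difference of 1 is a 2-fold change, and differences are given as DMPT minus vehicle with the standard error (SE) of the fit. The design asks how expression in exposed animals differs from that in vehicle animals.

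Fibroblasts secrete the fibrillar collagens, which assemble outside the cell into the fibres that carry the load of a tissue. Small leucine-rich proteoglycans such as decorin and lumican bind these fibres and set their width and spacing, collagen VI forms a finer network around cells, and fibulins and fibrillin build elastic fibres. Smooth muscle cells and pericytes wrap vessels and carry contractile proteins, among them smooth muscle actin. An epithelium rests on this stroma across a basement membrane. In tissue samples of this kind, fewer cells of a type and less RNA per cell cannot be told apart.

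The stretches of DNA just before the transcription start of 3 members the results turn on are shown first: Pcolce, the member that passed the test, Dpt, of which 1 probe set passed, and Acta2, whose level set a DMPT animal apart. Each is the 250 bases before the start from RefSeq (build GRCr8), 5′ to 3′ on the strand of the gene; 24 of the 39 members had an entry. Capitals mark a TATAAA motif in Dpt and, in Acta2, 2 matches with at most 1 base off to the CArG box, the element bound by serum response factor at smooth muscle genes. The positions are chr12:24720722-24720971 (+ strand) for Pcolce, chr13:79656091-79656340 (+ strand) for Dpt and chr1:241172504-241172753 (- strand) for Acta2.
Pcolce: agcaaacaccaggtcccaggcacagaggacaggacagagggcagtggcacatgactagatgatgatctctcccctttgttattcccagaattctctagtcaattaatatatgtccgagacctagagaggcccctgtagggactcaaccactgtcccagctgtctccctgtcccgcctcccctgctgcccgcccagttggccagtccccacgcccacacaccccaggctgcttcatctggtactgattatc
Dpt: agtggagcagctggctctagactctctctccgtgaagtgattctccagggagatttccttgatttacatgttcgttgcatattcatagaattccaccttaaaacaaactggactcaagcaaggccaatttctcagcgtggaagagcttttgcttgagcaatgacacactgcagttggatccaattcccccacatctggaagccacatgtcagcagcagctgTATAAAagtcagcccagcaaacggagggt
Acta2: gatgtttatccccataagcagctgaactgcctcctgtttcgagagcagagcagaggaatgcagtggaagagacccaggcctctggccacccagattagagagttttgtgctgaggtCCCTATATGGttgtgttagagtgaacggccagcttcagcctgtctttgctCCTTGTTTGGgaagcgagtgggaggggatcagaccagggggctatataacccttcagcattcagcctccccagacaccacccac
Searched on both strands, TATAAA was found before 6 of the 24 members (Col1a2, Ogn, Postn, Dpt, Vim and Igfbp4) and before 12.9% of 33469 genes. The core of the antioxidant response element, TGACNNNGC, was found before 0 of the 24 members and 10.1% of genes. A CArG box with at most 1 base off was found before Acta2 and Omd and before 18.7% of genes, and an exact CArG box before 0 of the 24 members and 1.5% of genes. These are matches of letters, which do not show that a factor binds there.

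The captured tissue was checked against markers of the cells it could hold. The epithelial markers Epcam, Cdh1, Krt5, Krt8 and Krt18 had log2 values above 12.4 on every array, well over the upper quartiles of the arrays (9.96 to 10.1). The cartilage genes Col2a1, Acan and Matn1 stayed under the median over all probe sets (8.26) on all arrays but 1, where Matn1 reached 8.32. The bone genes Bglap and Ibsp lay above that median on all 10 arrays, at 9.01 to 12.01 and 9.06 to 11.21, and 12 of the 16 measured cartilage and bone genes had means below it. Likewise 11 of 12 skeletal muscle genes had means below that median. Vehicle replicate 2 stood apart, with a mean correlation of 0.975 with the other vehicle arrays, where the other arrays had 0.985 to 0.991 with their own groups. The log2 ratio of 3' to 5' control probe sets, which rises as RNA degrades, was 1.28 ± 0.13 with vehicle and 1.10 ± 0.19 after DMPT (mean ± SD, n = 5 each; exact permutation test, two-sided, p = 0.143, smallest possible 0.00794).

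Among the 39 members, Pcolce rose after DMPT and 0 fell in the limma fit, whereas 13.9% of all named genes passed in either direction, 7.13% of them higher and 6.77% lower. The threshold was an adjusted p of 0.05, with Benjamini-Hochberg adjustment over all 31042 probe sets. At an unadjusted p under 0.05 there were 6 members, where 28.2% of genes reached that level. The median difference was 0.027 over the 34 matrix and fibroblast genes and 0.39 over the 5 mural genes, beside -0.0052 over all genes. The members varied widely among animals of the same group: their median standard deviation within groups was 0.41 log2 units, beside 0.20 over all genes and 0.15 over 14 epithelial markers, and 38 of 39 members lay above the median of all genes. The 95% interval of a member therefore reached a median of 0.49 to either side of its difference, against 0.28 for all genes. The median of the matrix and fibroblast genes moved to -0.11 when DMPT replicate 1 was left out and to 0.11 when DMPT replicate 2 was. It was also below 0 without vehicle replicate 2 (-0.028), 4 (-0.053) or 5 (-0.017). With array weights it was -0.10, and with the 3' to 5' ratio in the fit -0.036.

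**Figure D1:**
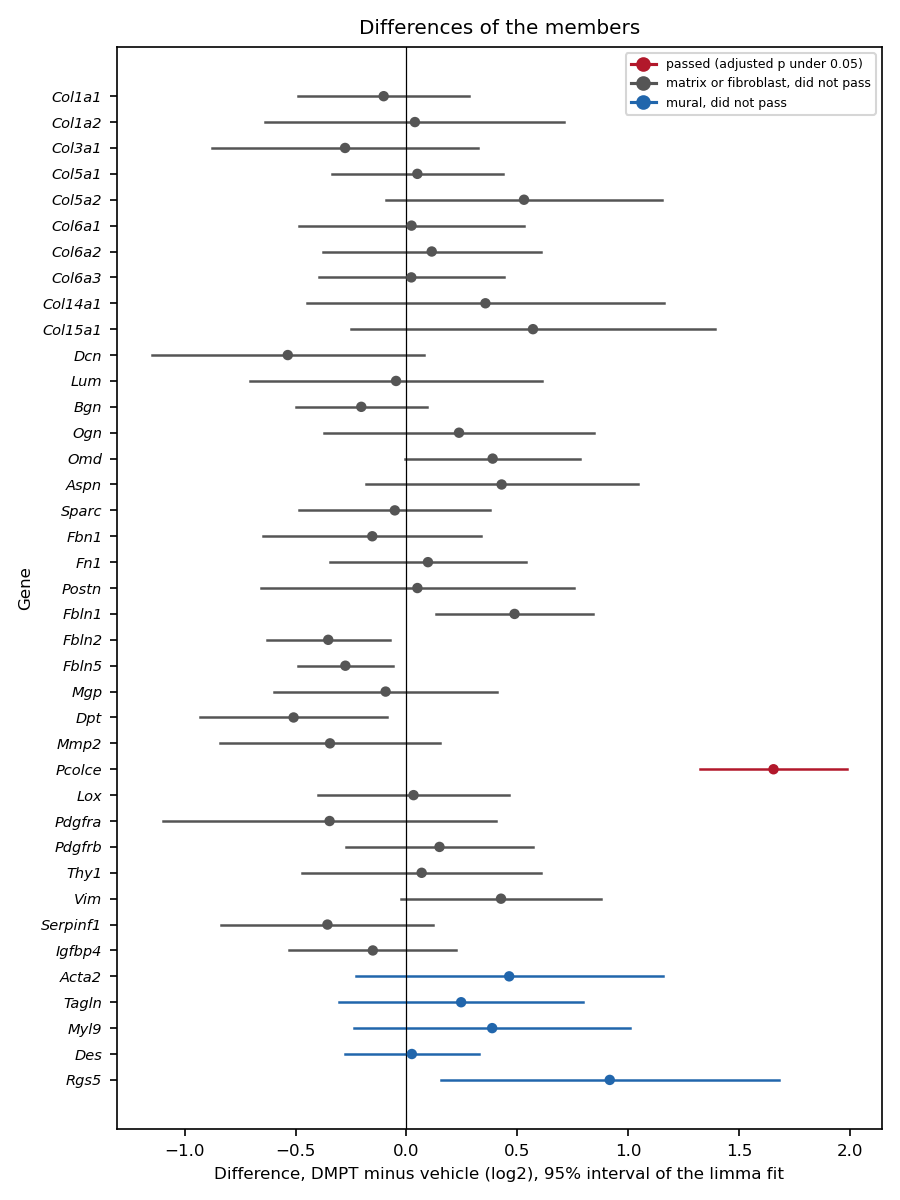
Difference of each member gene, DMPT minus vehicle in log2 units (horizontal axis), with the 95% interval of the limma fit; red marks the gene that passed, grey the other matrix and fibroblast genes and blue the mural genes. The interval of Pcolce lies between 1.32 and 1.99, and the intervals of Fbln1, Fbln2, Fbln5, Dpt and Rgs5 also leave out 0.

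Pcolce encodes the procollagen C-endopeptidase enhancer, a secreted protein that speeds the removal of the C-terminal propeptide from fibrillar procollagens. Its log2 values were 9.57, 9.99, 10.31, 9.60 and 9.54 in vehicle replicates 1 to 5 and 11.44, 11.24, 11.57, 11.58 and 11.44 in DMPT replicates 1 to 5. Every DMPT array lay above every vehicle array, and the groups of 13.9% of all genes were likewise without overlap. The difference was 1.66 ± 0.15 (SE) or 3.15-fold (adjusted p = 6.78e-05 in the limma fit), and it stayed between 1.59 and 1.78 without each array in turn. The DMPT arrays spanned 0.35 log2 units for Pcolce, where they spanned 0.93 for Col1a1 and 1.59 for Col1a2; the vehicle arrays spanned 0.77, 0.50 and 1.31 for the same genes. Pcolce was measured by 1 probe set. Bmp1, which encodes the protease it assists, differed by -0.022 ± 0.13 (adjusted p = 0.944).

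The other matrix enzymes did not pass. Lox, the lysyl oxidase that starts the cross-linking of collagen and elastin, had values of 7.25, 7.19, 7.80, 7.16 and 6.94 with vehicle and 7.94, 7.19, 7.20, 7.28 and 6.90 after DMPT, a difference of 0.032 ± 0.20. The gelatinase gene Mmp2 had 9.59, 10.23, 9.98, 9.24 and 9.01 with vehicle and 9.53, 8.80, 9.53, 9.27 and 9.21 after DMPT, so that all DMPT animals lay below the vehicle mean and within or under the vehicle range. Its difference was -0.34 ± 0.23 (95% interval -0.84 to 0.15). A second probe set of Mmp2 was dim, between 4.48 and 4.84 on all 10 arrays.

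None of the 5 fibrillar collagen genes passed in the limma fit, and 0 did at an unadjusted p under 0.05. Col1a1 and Col1a2 encode the 2 chains of type I collagen, the main collagen of stroma and of bone. Col1a1 had values of 13.35, 13.09, 13.58, 13.08 and 13.38 with vehicle and 13.36, 12.81, 13.22, 13.73 and 12.85 after DMPT. Both the highest and the lowest of its values came from DMPT animals, replicates 4 and 2, and the groups overlapped throughout. The 95% interval of its difference ran from -0.49 to 0.28.

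Col1a2 was likewise highest in DMPT replicate 4, with 12.25, 11.45, 12.77, 11.78 and 12.30 with vehicle and 12.39, 11.49, 12.12, 13.08 and 11.66 after DMPT. Vehicle replicate 2 and DMPT replicate 2 were the lowest, and DMPT replicate 4 was 3.01-fold above DMPT replicate 2. The difference between the groups was 0.038 ± 0.31 (95% interval -0.64 to 0.71). Col3a1, the type III collagen of loose connective tissue and vessel walls, was highest with 11.94 in vehicle replicate 1 and 11.88 in DMPT replicate 1 and lowest with 10.51 in DMPT replicate 2. The other vehicle arrays had 11.42, 11.74, 10.72 and 11.13 and the other DMPT arrays 11.31, 11.10 and 10.77, and the difference was -0.28 ± 0.27. DMPT replicate 4, the highest array for both type I chains, thus lay below the vehicle mean of 11.39 for type III.

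Type V collagen starts the assembly of type I fibrils. Col5a1 had 8.86, 8.71, 8.85, 8.73 and 9.00 with vehicle and 9.13, 8.50, 8.95, 9.41 and 8.41 after DMPT. The vehicle animals were close together (SD 0.12), the DMPT animals spread to both sides of them (SD 0.42), and replicate 4 was again the highest. Col5a2 had 8.27, 7.69, 8.50, 7.14 and 8.06 with vehicle and 9.01, 7.84, 8.60, 8.86 and 7.99 after DMPT. It differed by 0.53 ± 0.29 with this brighter probe set and by -0.0071 ± 0.26 with the other, so that its direction is not settled.

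Collagen VI, collagen XIV and collagen XV did not pass either. The 3 collagen VI genes Col6a1, Col6a2 and Col6a3 differed by 0.023, 0.11 and 0.022. Col6a1 had 10.19, 10.40, 10.19, 9.79 and 9.76 with vehicle and 10.66, 9.50, 10.62, 9.71 and 9.96 after DMPT. Col6a2 had 9.60, 9.45, 9.64, 8.80 and 9.20 with vehicle and 10.00, 8.93, 9.76, 9.03 and 9.55 after DMPT. In both genes DMPT replicates 1 and 3 were the highest of all animals, while DMPT replicates 2 and 4 lay below the vehicle mean. Col14a1, a collagen bound to the surface of fibrils, had 8.29, 8.32, 7.97, 6.42 and 7.00 with vehicle and 8.61, 7.37, 8.07, 7.65 and 8.08 after DMPT. Col15a1, found at the basement membranes of vessels and muscle, had 9.13, 7.94, 9.06, 7.56 and 9.40 with vehicle and 9.67, 8.32, 9.73, 9.23 and 8.99 after DMPT. Its difference was 0.57 ± 0.37, and a second probe set gave 0.85 ± 0.31 (adjusted p = 0.109) with 5 of 5 DMPT arrays above the vehicle mean. Both genes spread more among animals of a group than any other member, with standard deviations of 0.69 and 0.70.

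Of the proteoglycan genes, 0 of 6 passed in the limma fit and 0 at an unadjusted p under 0.05. Dcn, which encodes decorin, had values of 10.62, 9.91, 9.79, 9.55 and 9.61 with vehicle and 10.26, 9.31, 9.09, 8.64 and 9.49 after DMPT. Replicate 1 was the highest of each group, and the other 4 DMPT animals lay below all 5 vehicle animals. The difference was -0.54 ± 0.28 (adjusted p = 0.272), with a 95% interval from -1.15 to 0.079. DMPT replicate 4, with the most type I collagen signal, had the lowest Dcn. Lum, which encodes lumican, had 8.36, 7.76, 7.81, 7.18 and 8.29 with vehicle and 8.77, 7.10, 7.86, 7.98 and 7.45 after DMPT, with a difference of -0.047 ± 0.30.

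Bgn, which encodes biglycan, was below the vehicle mean in 5 of 5 DMPT arrays, with 8.86, 8.47, 8.96, 8.99 and 8.68 against 9.13, 9.14, 9.20, 8.68 and 8.83 with vehicle. Its difference was -0.20 ± 0.14 (adjusted p = 0.402). Omd encodes osteomodulin, a proteoglycan of mineralised tissue, and was highest in DMPT replicates 4 and 5 (7.09 and 6.96), with the other DMPT arrays at 6.64, 6.46 and 6.28 and the vehicle arrays at 6.54, 6.10, 6.68, 6.16 and 6.01. Its difference was 0.39 ± 0.18 (adjusted p = 0.208). Aspn, which encodes asporin, was dim, with 5.76, 5.16, 6.28, 6.31 and 5.70 with vehicle and 6.42, 5.79, 7.16, 5.84 and 6.15 after DMPT, and differed by 0.43 ± 0.28. Ogn, which encodes osteoglycin, differed by 0.24 ± 0.28, and it was the proteoglycan highest in DMPT replicate 2 (9.28), an animal low in most other members.

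Among the 9 matrix glycoprotein genes, 0 passed in the limma fit, and Fbln1, Fbln2, Fbln5 and Dpt had an unadjusted p under 0.05. Dpt encodes dermatopontin, which binds decorin and helps collagen fibrils form. Its brighter probe set had 11.36, 10.83, 10.47, 10.61 and 11.15 with vehicle and 10.57, 9.97, 10.80, 10.21 and 10.31 after DMPT, a difference of -0.51 ± 0.19 (adjusted p = 0.122). The dimmer probe set had 9.41, 9.25, 9.07, 8.71 and 9.06 with vehicle and 8.48, 8.84, 8.47, 8.58 and 8.46 after DMPT. By that probe set Dpt passed and was lower, at -0.54 ± 0.13 or 1.45-fold (adjusted p = 0.0241), beside 11.1% of all probe sets passing. All DMPT arrays lay below the vehicle mean with both probe sets, and the groups overlapped with both. The call of the dimmer probe set ended without vehicle replicate 1 or without any of DMPT replicates 1, 3, 4 and 5, with adjusted p from 0.0085 to 0.0632 over the omissions, and once the 3' to 5' ratio entered the fit as a covariate (-0.40, adjusted p = 0.123).

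The 3 fibulin genes differed in sign. Fbln1, a fibulin of basement membranes and elastic fibres, had 7.81, 8.15, 7.79, 7.15 and 7.63 with vehicle and 8.44, 8.07, 8.28, 8.10 and 8.08 after DMPT. Vehicle replicate 2 was the only vehicle animal within the DMPT range. The difference was 0.49 ± 0.16 (adjusted p = 0.0798 in the limma fit), and it passed without that animal (0.60, adjusted p = 0.0216). Without each array in turn it ran from 0.35 to 0.60, with adjusted p from 0.0216 to 0.166. A second, dimmer probe set of Fbln1 differed by 0.22 ± 0.17 (adjusted p = 0.478). Fbln2 had 6.64, 6.77, 6.30, 6.32 and 6.45 with vehicle and 6.42, 6.15, 5.92, 5.97 and 6.24 after DMPT, and differed by -0.35 ± 0.13 (adjusted p = 0.103). Fbln5, needed for the assembly of elastic fibres, had 6.85, 6.80, 6.81, 6.50 and 6.82 with vehicle and 6.53, 6.61, 6.54, 6.31 and 6.40 after DMPT. Its difference of -0.28 ± 0.10 (adjusted p = 0.1) passed without vehicle replicate 4, the lowest vehicle animal (-0.34, adjusted p = 0.0429). All 3 fibulins had mean levels below the median of all probe sets. All 5 DMPT arrays lay above the vehicle mean for Fbln1 with the brighter probe set and 4 with the other, and 0 of 5 did for Fbln2 or Fbln5.

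Sparc, which encodes osteonectin, a collagen-binding protein of remodelling tissue and bone, had 12.83, 11.97, 12.80, 12.42 and 12.65 with vehicle and 12.68, 12.00, 12.69, 12.81 and 12.24 after DMPT, with a difference of -0.053 ± 0.20. Mgp encodes matrix Gla protein, an inhibitor of calcification, and differed by -0.094 ± 0.23; DMPT replicate 4 had 11.75 and DMPT replicate 5 had 12.78. Fn1 (fibronectin), Fbn1 (fibrillin 1) and Postn (periostin) differed by 0.097, -0.15 and 0.049. Postn was highest in DMPT replicate 1 (9.15) and lowest in DMPT replicate 5 (7.27), a 3.69-fold span within 1 group.

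Of the fibroblast surface and secreted genes, 0 of 6 passed in the limma fit and 0 at an unadjusted p under 0.05. Pdgfra, the receptor for platelet-derived growth factor that marks fibroblasts, had 9.57, 9.82, 8.77, 8.23 and 8.58 with vehicle and 9.63, 8.31, 8.76, 8.53 and 8.01 after DMPT. Its values spanned 1.81 log2 units over the 10 arrays, and the difference was -0.35 ± 0.34. Pdgfrb, the related receptor of pericytes and fibroblasts, had 8.54, 7.87, 8.05, 7.32 and 7.76 with vehicle and 8.25, 7.83, 8.25, 8.06 and 7.90 after DMPT, a difference of 0.15 ± 0.19. Vim, the intermediate filament of mesenchymal cells, had 11.03, 10.24, 11.17, 10.39 and 10.67 with vehicle and 11.23, 10.64, 11.50, 10.95 and 11.32 after DMPT. Its difference was 0.43 ± 0.21 (adjusted p = 0.229). Serpinf1, which encodes an inhibitor of vessel growth (PEDF), had 9.91, 9.33, 9.88, 9.41 and 9.52 with vehicle and 9.83, 8.69, 9.13, 9.70 and 8.93 after DMPT, a difference of -0.36 ± 0.22. Igfbp4, a binding protein of insulin-like growth factors, and the surface protein gene Thy1 differed by -0.15 ± 0.17 and 0.069 ± 0.25.

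**Figure D2:**
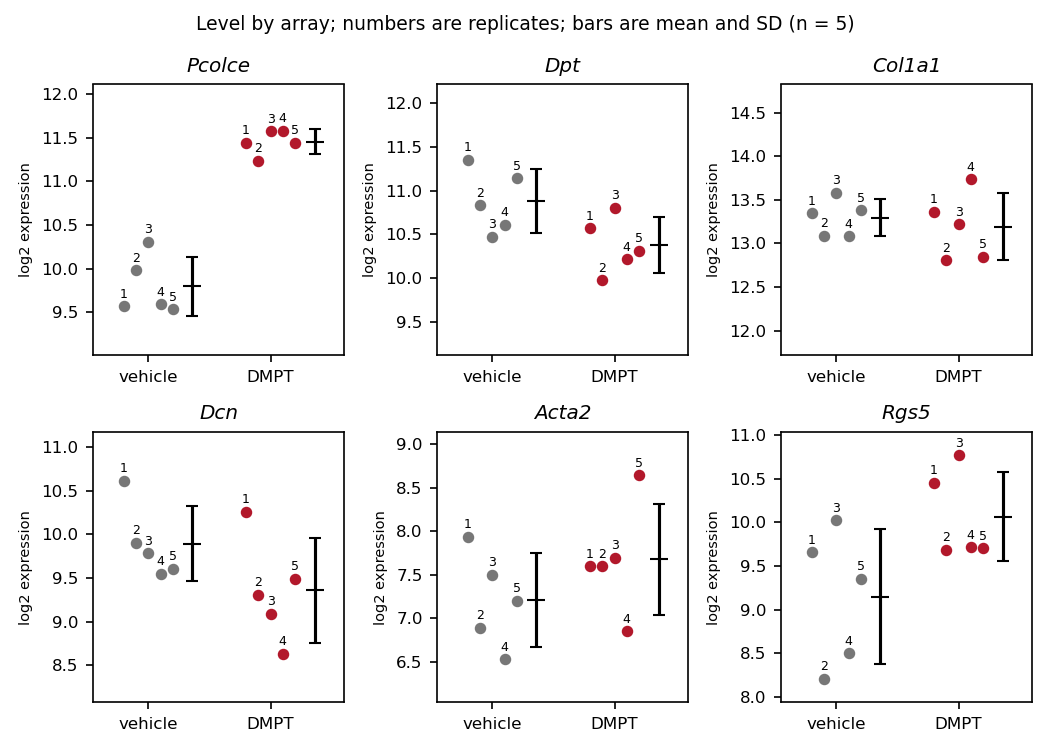
Log2 expression of 6 members on each array (vertical axis, the same span in every panel), with vehicle in grey and DMPT in red, numbers marking replicates and black bars the mean and SD of 5 arrays. The groups of Pcolce are apart, those of the other 5 genes overlap, and DMPT replicate 4 is highest for Col1a1 and lowest for Dcn while replicate 5 is highest for Acta2.

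The 5 mural genes all had differences above 0, and 0 passed in the limma fit; Rgs5 alone had an unadjusted p under 0.05. Acta2, which encodes smooth muscle actin, had 7.94, 6.90, 7.50, 6.54 and 7.20 with vehicle and 7.60, 7.60, 7.70, 6.85 and 8.64 after DMPT. DMPT replicate 5 exceeded the next DMPT animal by 0.94 log2 units and every vehicle animal. The difference was 0.46 ± 0.32 (95% interval -0.23 to 1.16).

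Tagln, the actin-binding protein transgelin, and Myl9, a regulatory light chain of smooth muscle myosin, ordered the animals alike at both ends. Tagln had 8.46, 8.06, 8.14, 7.61 and 8.04 with vehicle and 8.46, 7.99, 8.14, 7.74 and 9.23 after DMPT. Myl9 had 10.26, 9.18, 9.51, 9.10 and 9.66 with vehicle and 10.07, 9.58, 9.85, 9.32 and 10.84 after DMPT. For Acta2, Tagln and Myl9, vehicle replicate 1 was the highest and replicate 4 the lowest of the vehicle animals, and DMPT replicate 5 was the highest and replicate 4 the lowest of the DMPT animals. The differences of Tagln and Myl9 were 0.25 ± 0.25 and 0.39 ± 0.28.

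Rgs5, a regulator of G protein signalling that marks pericytes, followed another order, with 9.65, 8.21, 10.02, 8.50 and 9.35 with vehicle and 10.45, 9.69, 10.77, 9.72 and 9.70 after DMPT. DMPT replicates 1 and 3 were the highest of all 10 animals, and DMPT replicate 5 was among the lower DMPT animals. All 5 DMPT animals lay above the vehicle mean, and the difference was 0.92 ± 0.35 or 1.89-fold (adjusted p = 0.122), with a 95% interval from 0.15 to 1.68. Des, the intermediate filament of muscle, was dim, with 5.53, 6.32, 6.11, 6.22 and 6.03 with vehicle and 6.06, 5.96, 6.19, 5.98 and 6.16 after DMPT, and differed by 0.024 ± 0.14. The median of the mural genes lay between 0.16 and 0.57 when single arrays were left out. Dropping DMPT replicate 5 gave the lowest value, and dropping vehicle replicate 1 the highest. That median was 0.10 with the 3' to 5' ratio in the fit and 0.26 with array weights. It was 0.41 after quantile normalisation and 0.43 with array median centring. With Pdgfrb counted among the mural genes it was 0.32.

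The level of the members in each animal was taken as the mean difference of the genes from their vehicle means. Over the 33 matrix and fibroblast genes other than Pcolce it was 0.33, -0.051, 0.19, -0.39 and -0.078 in vehicle replicates 1 to 5 and 0.40, -0.35, 0.14, -0.021 and -0.13 in DMPT replicates 1 to 5. The spread from the lowest to the highest animal was 0.76 log2 units after DMPT and 0.72 with vehicle, and the groups overlapped throughout. Leaving out Pcolce was chosen after seeing the data. With Pcolce the level was 0.31, -0.044, 0.20, -0.39 and -0.083 with vehicle and 0.44, -0.30, 0.19, 0.032 and -0.080 after DMPT. DMPT replicate 4 then lay above the vehicle mean. Few animals made up the ends: of these 33 genes, vehicle replicate 4 was the lowest vehicle animal for 19 and DMPT replicate 2 the lowest DMPT animal for 22. Vehicle replicate 1 was the highest vehicle animal for 14 and DMPT replicate 1 the highest DMPT animal for 17, and neither was lowest for any. Across the 5 mural genes the level was 0.37, -0.27, 0.26, -0.41 and 0.055 with vehicle and 0.52, 0.16, 0.53, -0.083 and 0.91 after DMPT. DMPT replicate 5 was thus the highest animal in mural genes and below the vehicle mean in matrix genes.

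**Figure D3:**
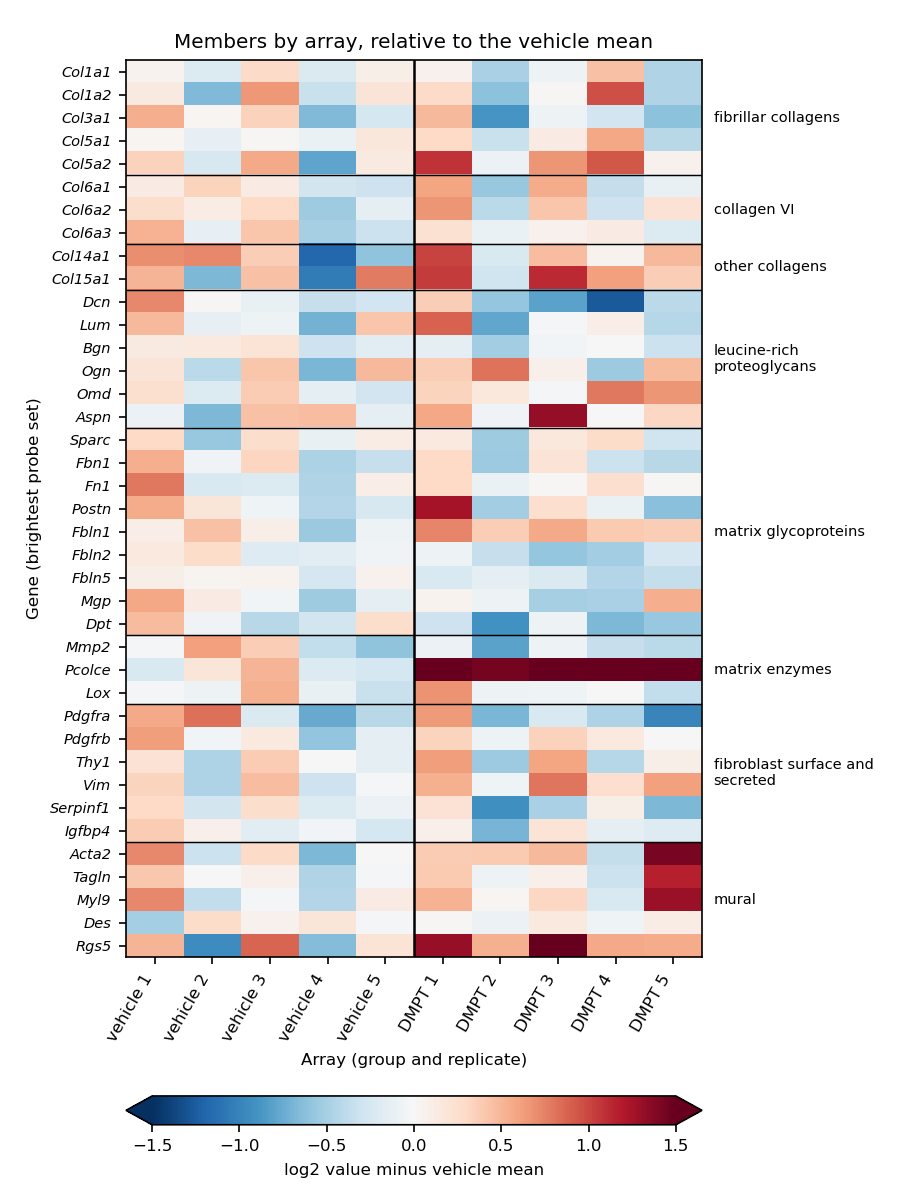
Log2 value of each member minus its vehicle mean (colour; the darkest shades stand for 1.5 or more either way), with the 10 arrays in columns and the 39 genes in rows by role. Vehicle replicate 4 and DMPT replicate 2 are blue across most matrix genes, the row of Pcolce is dark red in all DMPT arrays, and the column of DMPT replicate 5 is red for Acta2, Tagln and Myl9.

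The DMPT animal with the most type I collagen signal also carried the most signal of bone genes. Genes of a cartilage and bone list did not pass as a comparison of groups (0 of 16 higher and 0 lower in the limma fit). At an unadjusted p under 0.05 there was 1 of them, where 28.2% of all genes reached that level. The bone genes set 1 animal apart. The mean level of the list was 0.83 in DMPT replicate 4 and between -0.32 and 0.22 in the other 9 animals. Dmp1, a matrix protein of osteocytes, was 11.45 there and between 6.15 and 7.87 on the other 9 arrays. The osteocalcin gene Bglap was 12.01 there, and on the other arrays it was 10.56, 9.01, 10.50, 9.76 and 11.16 with vehicle and 10.33, 9.77, 10.38 and 9.15 after DMPT. Spp1 (osteopontin) was 11.99 and Ibsp (bone sialoprotein) 11.21 in that animal, where the highest values elsewhere were 9.57 and 10.40. The matrix members for which replicate 4 was the highest DMPT animal were Col1a1, Col1a2, Col5a1, Bgn, Omd and Sparc. Those for which it was the lowest were Dcn, Ogn and Fbln5, and of the mural genes Acta2, Tagln and Myl9. The part of bone tissue in the collagen values was not tested; without DMPT replicate 4 the difference of Col1a1 was -0.24 and that of Col1a2 -0.19.

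**Figure D4:**
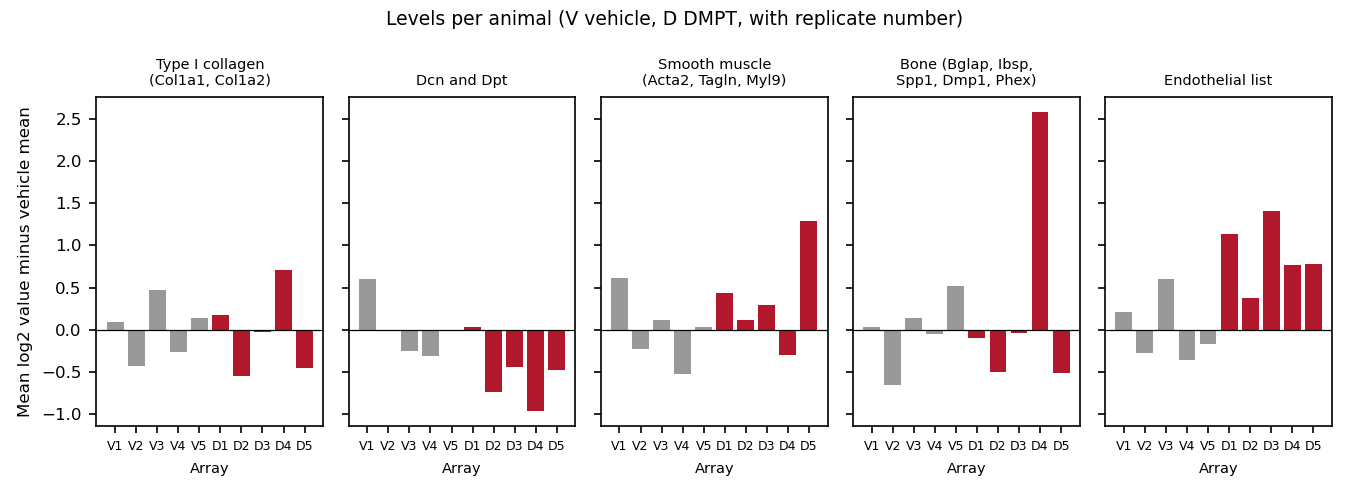
Mean log2 value minus the vehicle mean (vertical axis) on each array for 5 groups of genes, with vehicle in grey (V1 to V5) and DMPT in red (D1 to D5); the groups of genes were put together after the values were seen. Bone genes reach 2.58 in DMPT replicate 4, where the type I collagen pair is at 0.70 and the pair of Dcn and Dpt at -0.96, and the smooth muscle genes reach 1.30 in DMPT replicate 5. The bone genes shown (Bglap, Ibsp, Spp1, Dmp1 and Phex) do not stand for the cartilage and bone list. The mean of its 16 genes was 0.83 in DMPT replicate 4. The pair of Dcn and Dpt does not stand for its lists. In DMPT replicate 4 the 6 proteoglycan genes, Dcn among them, had a mean of -0.15. The 9 matrix glycoprotein genes, Dpt among them, had a mean of -0.18 there.

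Endothelial genes, whose cells the mural cells surround, were given beside the mural genes. Of 18 measured endothelial genes, 9 rose and 0 fell, against 13.9% of all genes in either direction; that number ran from 4 to 10 without each array in turn (4 without DMPT replicate 3 or vehicle replicate 4, 5 without DMPT replicate 1) and was 3 with the 3' to 5' ratio in the fit. Pecam1, an adhesion protein of endothelial cells, rose by 1.15 ± 0.17. The mean level of the list was 0.21, -0.27, 0.60, -0.37 and -0.17 in the vehicle animals and 1.14, 0.38, 1.41, 0.76 and 0.78 in the DMPT animals. The animals highest in Rgs5, DMPT replicates 1 and 3 and vehicle replicate 3, were also the highest of their groups in endothelial level. DMPT replicate 5, highest in Acta2, Tagln and Myl9, was not. The part of vessel content in the values of Rgs5 was not tested.

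Other genes of smooth muscle and pericytes, from a list of 26 of which 25 were measured, gave 4 higher and 1 lower, with a median difference of 0.12, where 7.13% of all genes were called higher and 6.77% lower; the number higher ran from 2 to 5 without each array in turn. Notch3, the Notch receptor of mural cells, rose by 0.67 ± 0.14 (adjusted p = 0.0113) and Smtn, the smooth muscle protein smoothelin, by 0.35 ± 0.078 (adjusted p = 0.0157). Kcnj8, a marker of pericytes, and Mcam, another gene of the list, rose by 0.47 ± 0.12 and 1.05 ± 0.31. Kcnj8 lost the call without any 1 of 6 of the 10 arrays, and Mcam without any 1 of 8. Ppp1r14a, an inhibitor of myosin phosphatase, fell by 0.46 ± 0.11 and lost the call without DMPT replicate 3. Myh11, the smooth muscle myosin heavy chain, differed by -0.28 ± 0.16, and in DMPT replicate 5 it had 8.70, within the range of the other DMPT animals (8.57 to 8.95). The calponin gene Cnn1 was 8.74 in DMPT replicate 5, with 7.04, 6.53, 6.15 and 5.99 in the other DMPT animals and 7.22, 5.33, 6.16, 5.82 and 6.05 with vehicle. With the 3' to 5' ratio in the fit, Notch3 alone of these kept an adjusted p under the threshold (0.0448).

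Other matrix genes were taken from a further list. Of its 41 measured genes, 3 rose and 6 fell, and of 21 genes of collagen synthesis and processing, 0 rose and Plod1 fell. Over all genes, 7.13% were called higher and 6.77% lower, so that the 3 higher of 41 are near the share over all genes and the 1 lower of 21 is below it. Plod1, a lysyl hydroxylase that modifies collagen before it is secreted, fell by 0.61 ± 0.12 (adjusted p = 0.00617). Efemp1, a fibulin-like matrix protein, fell by 1.06 ± 0.13 (adjusted p = 0.000446), and its DMPT values (8.80 to 9.52) lay below all vehicle values (10.08 to 10.15). Tgfbi, a secreted adhesion protein, fell by 0.81 ± 0.13, and Mfap4, a protein of elastic fibres, by 0.86 ± 0.18. Cxcl12, the chemokine of stromal cells, Pi16, a marker of adventitial fibroblasts, and Col7a1, the anchoring fibril collagen made by basal epithelial cells, were the other genes that fell.

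The basement membrane collagen genes Col18a1 and Col4a1 rose by 0.91 ± 0.16 and 1.32 ± 0.34, and the latent TGF-beta binding protein gene Ltbp1 by 0.75 ± 0.17. The call of Col4a1 was lost without any 1 of 8 of the 10 arrays, and Col7a1 lost its call without DMPT replicate 3. With the 3' to 5' ratio in the fit, 1 rose and 3 fell on this list. Epithelial markers gave 3 higher (Krt5, Krt8 and Cldn7) and 0 lower of 14, beside 7.13% of all genes higher, while Epcam differed by -0.068 ± 0.085. Of the 14, 12 had differences above 0, as did 6987 of all 14217 genes. The mean level of the epithelial list was 0.17 to 0.36 in the DMPT animals. It was -0.30 (replicate 2) to 0.12 in the vehicle animals.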

How the data were processed

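RNA was amplified before labelling, per the labels' protocols, and expression was measured on 10 arrays, 1 for each animal. The authors deposited log2 values, 1 for each probe set and array, and used RMA per the submitters' processing notes; its version and any filter were not given in the sources used here. After 57 control probe sets were set aside, 31042 were fitted for treatment by lmFit and eBayes of limma (3.58.1, under R 4.3.3), with no filter and with Benjamini-Hochberg adjustment over all probe sets. The fit was tested on simulated data. Each gene is given by its brightest probe set over the 10 arrays; symbols came from the platform annotation, where 20826 probe sets had 1 symbol, 436 several and 9780 none. Arrays have no read depth, so the number of animals limits precision. Animals shared cages per the labels, and which animals did so was not given. Arrays were taken as independent, so that p-values set a difference against the spread between these animals. An effect of shared cages on them was not tested. The members and gene lists were chosen with earlier results of these data known. By rule, every member may be named, and of each further list the called genes with the smallest p plus Col4a1, Myh11, Pecam1 and Epcam; Bmp1, Cnn1, Mcam, Cxcl12, Pi16, Col7a1, Ltbp1 and the bone genes were named after their values were seen. Alternatives were other scalings, array weights, another variance prior, the RNA ratio as a covariate, a replicate block, no dim probe sets, the mean of all probe sets and each array left out. A further alternative counted Pdgfrb as a mural gene. The authors compared the groups with ORIOGEN, per the series design text, which was not run here. Same-numbered arrays are not paired by the labels.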

Additional observations from a re-analysis of the deposited data

Results flagged for a closer look

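The level of Fbln5 in vehicle replicate 4 lay apart from the other vehicle animals. It was 6.50, where the other 4 vehicle animals had between 6.80 and 6.85, by Dixon's criterion for a value far from the rest of its group. It was the only result so marked among 96 groups of 5 values checked, and chance alone marks about 1 in 20. Vehicle replicate 4 was also the lowest vehicle animal for 19 of the 33 matrix and fibroblast genes other than Pcolce. Without it Fbln5 passed the test (-0.34, adjusted p = 0.0429 in the limma fit). The levels of the epithelial list and of the cartilage and bone list were not among the groups checked. The epithelial level was -0.30 in vehicle replicate 2 and 0.054 to 0.12 in the other vehicle animals. The cartilage and bone level was 0.83 in DMPT replicate 4 and -0.32 to 0.0056 in the other DMPT animals.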

How the results depend on the processing

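Pcolce rose under every alternative run, and in 291 of 309 member values under other settings and 348 of 390 with an array left out, direction and side of the threshold stayed as reported. Without each array in turn, 1 to 2 members rose and 0 to 1 fell, with the same ranges for the matrix and fibroblast genes; Fbln1 was added without vehicle replicate 2 and Fbln5 without vehicle replicate 4. With array median centring or array weights, 2 members rose (Pcolce and Fbln1); with the mean of all probe sets, Dpt fell, which made 1 lower. The further lists gave 28 called genes, 13 with the RNA ratio in the fit and 19 to 33 without each array in turn. The cause of these changes was not tested.

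With the replicate number as a block, 3 members rose and 1 fell: Rgs5 (0.92, adjusted p = 0.0112), the 1 mural gene higher, and Vim (0.43, adjusted p = 0.0364) joined Pcolce (adjusted p = 0.00075), and Dcn fell (-0.54, adjusted p = 0.0365), so that matrix and fibroblast genes gave 2 higher and 1 lower. The labels do not pair the animals, and deviations of same-numbered arrays correlated at 0.074, 0.22, 0.23, -0.067 and -0.012, with 2 of 5 DMPT arrays closest to their own number.

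Directions turned for small differences. Col1a2 was -0.14 with the RNA covariate, -0.16 with array weights and -0.043 with the mean of all probe sets; Thy1 was -0.093 and -0.10 with the first 2 of these. With array weights Col6a3 was -0.085, Postn -0.0019 and Lox -0.11. With the mean of all probe sets Col6a3 was -0.052, Sparc 0.080 and Fbn1 0.14, and Lum was 0.0074 after quantile normalisation. Without each array in turn, the ranges that crossed 0 were -0.19 to 0.20 for Col1a2, -0.083 to 0.17 for Col5a1, -0.12 to 0.17 for Col6a1, -0.022 to 0.24 for Col6a2, -0.10 to 0.15 for Col6a3, -0.28 to 0.14 for Lum, -0.19 to 0.069 for Sparc, -0.017 to 0.29 for Fn1, -0.25 to 0.22 for Postn, -0.25 to 0.052 for Mgp, -0.13 to 0.16 for Lox, -0.072 to 0.22 for Thy1 and -0.10 to 0.094 for Des. Without Pcolce, an alternative chosen after seeing the data, the median of the matrix and fibroblast genes was 0.023. The mean levels of 18 members lay below the median of all probe sets; leaving out the dimmest quartile of probe sets changed no count of members called.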

Other observations

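Of the 18 members with more than 1 probe set, 9 had probe sets whose differences pointed in opposite directions. Fbn1, which encodes fibrillin 1, differed by -0.15 ± 0.22 with its brighter probe set and by 0.43 ± 0.30 with the other, where 5 of 5 DMPT arrays lay above the vehicle mean. Col14a1 differed by 0.36 ± 0.37 and -0.25 ± 0.26.

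Among 9 measured Schwann cell genes, 1 rose and 0 fell, where 7.13% of all genes were called higher and 6.77% lower. The gene that rose was Mal, a membrane protein of myelin and of epithelia, by 1.53 ± 0.25. Of 12 skeletal muscle genes, 0 passed in the limma fit, and 3 had an unadjusted p under 0.05, where 28.2% of all genes did.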
